A study of Mus musculus with 22 samples.

Results

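The genes described here are 10 receptor tyrosine kinases of mouse fibroblasts: the platelet-derived growth factor receptors Pdgfra and Pdgfrb, the fibroblast growth factor receptor Fgfr1, the epidermal growth factor receptor Egfr, the insulin-type receptors Igf1r and Insr, the hepatocyte growth factor receptor Met, the Gas6 receptor Axl, and the collagen receptors Ddr1 and Ddr2. They were taken by name, as members of the receptor tyrosine kinase family, and not by their values, and all 10 are among the 10516 genes measured. NIH3T3 cells, a fibroblast line grown from mouse embryos, were transduced with lentiviral pLKO.1puro vectors and selected with puromycin. Knockdown lysates carried Denr shRNA1 (n = 3) or Denr shRNA2 (n = 3), and control lysates carried scramble shRNA (n = 3) or Gfp shRNA (n = 2), so that every lysate, control or not, had an shRNA vector and puromycin selection. All cells received cycloheximide at 100 µg/ml for 2 min before lysis, and each of the 11 lysates gave a ribosome footprint (RPF-seq) library and an RNA-seq library. The shRNAs act in all cells of the transduced culture, and the knockdown lowers Denr without removing it.

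Receptor tyrosine kinases span the plasma membrane once, bind a ligand outside the cell and phosphorylate tyrosines on themselves and on adaptor proteins inside it, through which they drive the Ras-MAPK and PI3K-Akt cascades. In fibroblasts the platelet-derived and fibroblast growth factor receptors are classical mitogen receptors, and the discoidin domain receptors sense the collagen that these cells secrete. DENR, with its partner MCTS1, helps ribosomes that have translated a short upstream open reading frame (uORF) in a 5′ UTR to initiate again at the main coding sequence (CDS). In flies the insulin receptor is a known Denr target, which raises the question of whether the mouse receptors lose CDS translation when Denr is low.

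An AUG uORF was present in 7 of the 10 receptors, beside 49.8% of the 10249 genes with an annotated 5′ UTR. A uORF is here an AUG in the annotated 5′ UTR (GENCODE vM21, build GRCm38, the transcript with the longest CDS) followed by a stop codon in the same frame, at least 9 nt in all. The 7 receptors held 13 uORFs, counted by AUG, with 3 each in Fgfr1 and Ddr2, 2 each in Met and Ddr1 and 1 each in Insr, Pdgfra and Pdgfrb. The first and second of Fgfr1 share a frame and a stop codon, 393 nt before the CDS, so the second lies within the first. All 13 ended before the CDS and 0 overlapped it, so each left a stretch in which a ribosome could resume scanning. Egfr, Igf1r and Axl held 0 uORFs, and the annotated 5′ UTR of Igf1r was only 32 nt long. The Igf1r count covers these 32 nt of 1 annotated protein-coding transcript, and uORFs in a longer 5′ UTR, if cells make one, would be missed.

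A ribosome that translated the uORF ending nearest to the CDS would have the shortest stretch in which to initiate again. Whether these uORFs are translated was not tested. The start of this last uORF is shown for 6 receptors in 13 nt, 5′ to 3′ on the mRNA strand, with the AUG in capitals (written with T).
Insr: cggagtATGtccc
Fgfr1: atatccATGgagg
Ddr2: cagagaATGttct
Met: ccgaggATGgctg
Ddr1: ggagagATGctgt
Pdgfra: aaaacaATGcaaa
The Insr window lies at chr8:3279183-3279195 on the minus strand, in the 5′ UTR part of exon 1. The Fgfr1 window is at chr8:25532286-25532298 (plus strand, exon 2), the Ddr2 window at chr1:170088807-170088819 (minus strand, exon 2) and the Pdgfra window at chr5:75155903-75155915 (plus strand, exon 1). The Met and Ddr1 windows span an exon junction on chromosomes 6 and 17.

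These last uORFs stopped 13 nt before the CDS in Fgfr1, 19 nt in Ddr1, 28 nt in Insr and in Ddr2, 32 nt in Met, 251 nt in Pdgfrb and 402 nt in Pdgfra. In 5 of the 7 receptors the gap was thus at most 50 nt, a limit set here for description, against 41.6% of all genes with a uORF that ends before the CDS, whose median gap was 64 nt. The uORFs were short, 33 nt in Insr and 18 to 51 nt for the last uORF of the other receptors shown, and the longest of the 13, the first of Ddr1, had 126 nt. A purine at position -3 was found at 9 of the 13 uORF starts and a G at position +4 at 4, and 3 starts had both, the sequence setting that favours initiation: ccgaggATGgctg in Met, gttgccATGgtca at the first uORF of Ddr1 and ggggtgATGgaac at the second of Fgfr1. The receptors' 5′ UTRs had a median length of 450.5 nt, against 179 nt for all genes, and ranged from 32 nt in Igf1r to 746 nt in Fgfr1. The 5′ UTR regions behind the deposited values were longer than the annotated 5′ UTR of the chosen transcript in Pdgfra (1559 against 463 nt), Ddr1 (894 against 327 nt), Ddr2 (585 against 477 nt), Pdgfrb (488 against 438 nt), Axl (227 against 209 nt) and Egfr (280 against 272 nt), and equal in Fgfr1, Insr, Met and Igf1r. In those 6 receptors the uORF counts and gaps hold for the chosen transcript and may differ in the isoforms behind the measurements. The same limit may hold for Fgfr1, Insr and Met. Their CDS regions behind the values were longer than the CDS of the chosen transcript (2617 against 2499, 4152 against 4116 and 4209 against 4137 nt).

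**Figure D1:**
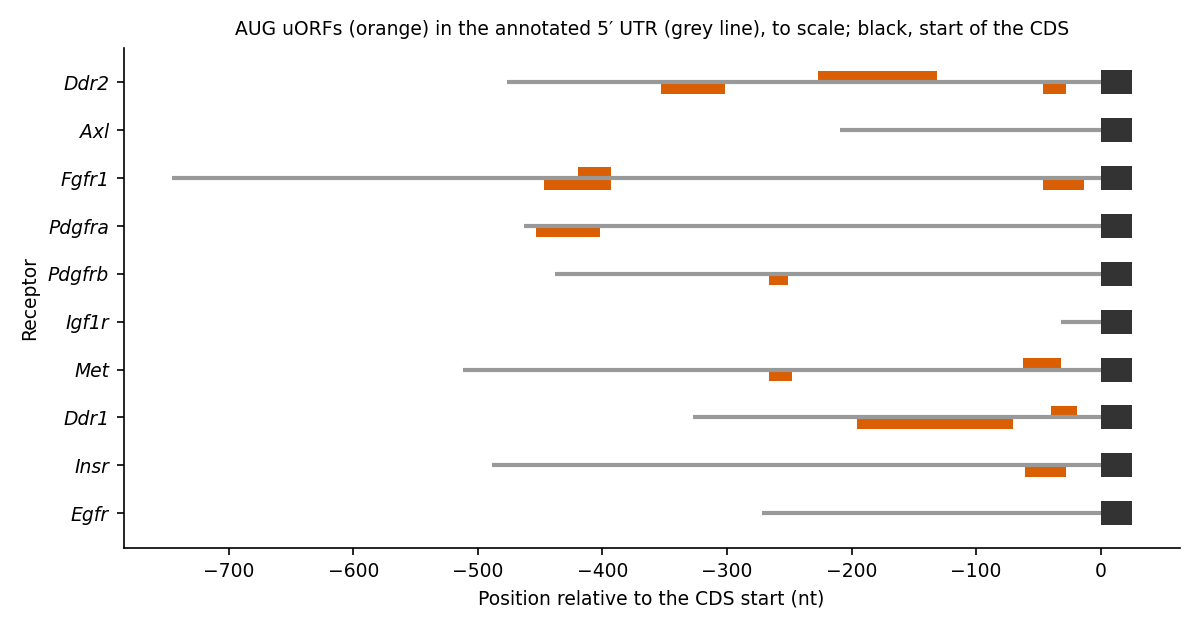
The annotated 5′ UTR of each receptor is drawn to scale as a grey line ending at the CDS start (position 0, in nt), with AUG uORFs as orange bars and the start of the CDS in black. Fgfr1, Ddr2, Met, Ddr1 and Insr each have a uORF that stops at most 50 nt before the CDS, the uORFs of Pdgfra and Pdgfrb stop farther away, and Egfr, Igf1r and Axl have none.

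The depth per library, counted on the CDS and 5′ UTR of the measured genes, was 10927303 to 21649878 reads in RPF-seq and 8514080 to 20109700 in RNA-seq, and the squared correlation between replicates of an shRNA was 0.981 to 0.992 for footprints and 0.956 to 0.994 for RNA. The lowest of these values, 0.956, was between RNA-seq replicates 1 and 3 of Denr shRNA1. Denr itself fell to 0.149 times the control level in RNA (log2 change -2.75 ± 0.25 SE, adjusted p = 0.00035, limma) and to 0.121 times in CDS footprints (-3.05 ± 0.32 SE, adjusted p = 0.000445, limma), with no overlap between knockdown and control lysates. Of 10 fibroblast markers 9 were in the files (all but Postn), with a summed RNA level of 8986 to 11580 RPKM in knockdown and 8576 to 10990 RPKM in control lysates. Of 19 epithelial, endothelial, leukocyte, muscle and neural markers 4 were in the files, and only Lyz2 (26.5 to 52.4 RPKM) was above 5 RPKM. In such bulk lysates fewer cells of a type and less RNA per cell cannot be told apart.

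In control cells the receptors covered a wide range of expression. On the scale of CDS footprints per length (RPKM, reads per kilobase of the region, scaled by library size), Ddr2 was highest with a mean of 194 (lysates from 169.6 to 212), followed by Axl with 128 (117 to 152), Fgfr1 with 124 (104 to 149.8), Pdgfra with 62.4 (56.9 to 68.6), Pdgfrb with 33.7 (23.6 to 45.2) and Igf1r with 18.9 (16.7 to 20.4). Met had a mean of 10.2 (7.61 to 12.2), Ddr1 of 9.18 (7.94 to 10.3), Insr of 6.10 (5.21 to 7.54) and Egfr of 2.53 (1.93 to 3.41). The control lysates of neighbours in this order overlapped only between Axl and Fgfr1 and between Met and Ddr1. Against all genes, Ddr2 stood at percentile 89.3 and Egfr at percentile 9.6, where 85 to 239 CDS footprints per library limit the precision.

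The order by RNA differed from that by footprints. Axl was highest in RNA per length with a control mean of 323 RPKM, then Fgfr1 with 218, Ddr2 with 144 and Pdgfra with 80.7, while Met, at 37.4 RPKM, stood above Pdgfrb at 30.8. Translation efficiency (TE), the ratio of CDS footprint to RNA RPKM in a lysate, was accordingly highest in Ddr2, at 1.35 in control cells, and lowest in Met, at 0.274. Met was at percentile 5.1 of TE among all genes and Axl, at 0.397, at percentile 11.7. The control lysates of Met lay between -2.16 and -1.65 in log2 TE and those of Axl between -1.45 and -1.25, so that these receptors did not overlap with each other or with any of the other 8. Among those 8, neighbours in the TE order overlapped in each case.

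**Figure D2:**
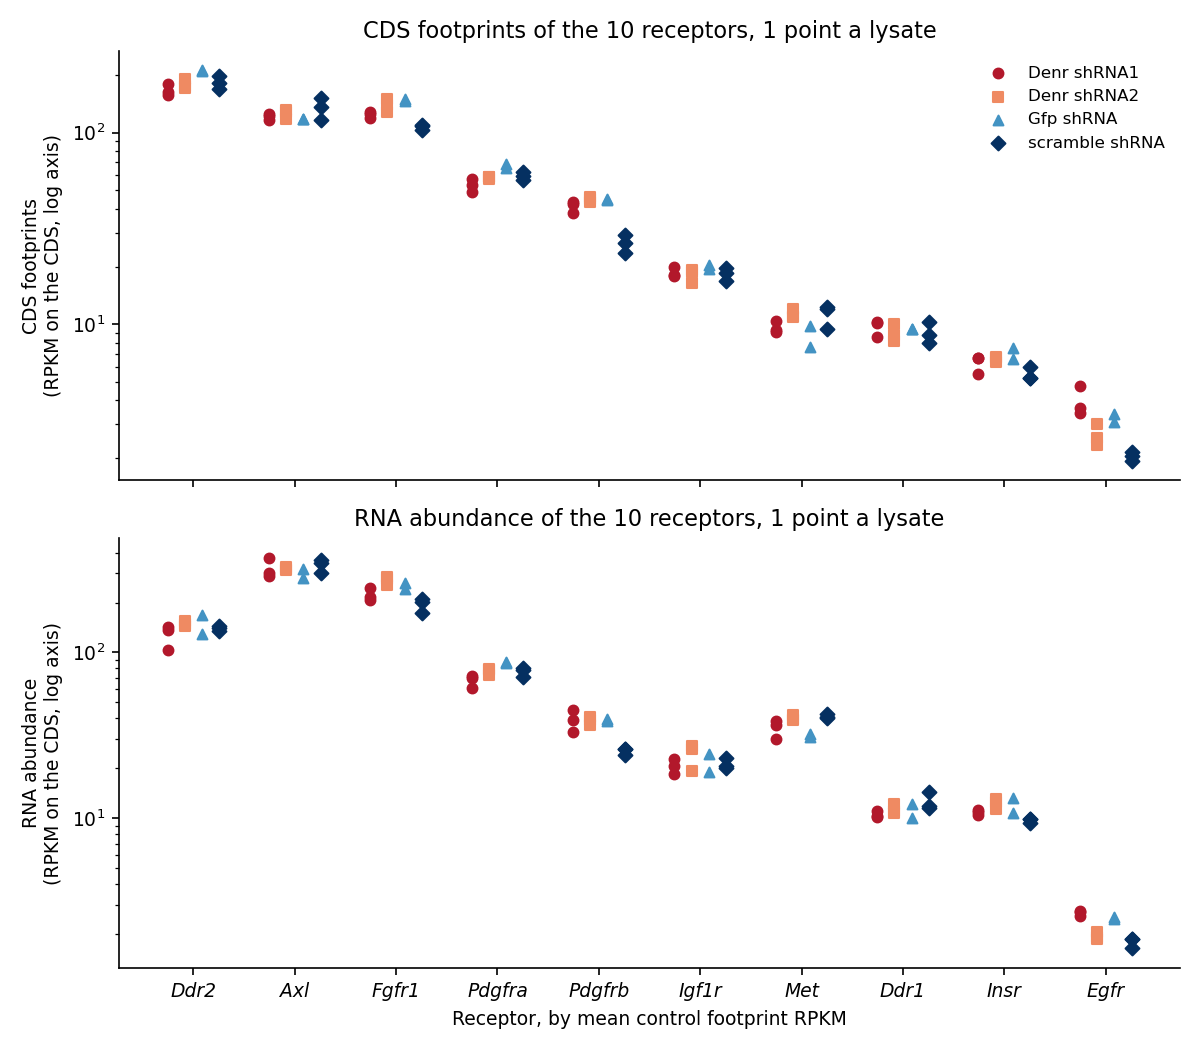
CDS footprints (upper panel) and RNA abundance (lower panel) of the 10 receptors in RPKM on log axes, 1 point for each of the 11 lysates, coloured by shRNA. Knockdown and control lysates overlap for every receptor, the scramble shRNA lysates lie lowest for Pdgfrb, Fgfr1 and Egfr footprints, and Met stands higher in RNA than in footprints.

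Denr knockdown did not move the TE of any of the 10 receptors past the threshold. In the limma test 0 of 10 passed an FDR of 0.1, where 50 of 10516 genes did (0.475%), all 50 lower. At an unadjusted p below 0.05 the count of receptors was also 0 (6.66% of all genes), and the interaction term over the 22 libraries, the other model run for TE, called 0 receptors as well. The receptors' log2 TE changes had a median of -0.02, beside -0.01 over all genes, and ranged from -0.11 for Ddr2 to 0.21 for Egfr. In 10 of 10 receptors the knockdown and control lysates overlapped in TE, as they did in 10 of 10 in RNA and in footprints and in 8 of 8 in relative 5′ UTR translation. Of all genes, 1.42% did not overlap in TE, 3.67% in RNA, 4.45% in footprints and 4.83% in relative 5′ UTR translation.

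For the insulin-type receptors, which bind insulin and insulin-like growth factors, the values were close in both conditions. Insr had 7.54 and 6.55 RPKM of CDS footprints in the Gfp shRNA lysates and 5.94, 5.26 and 5.21 in the scramble shRNA lysates, and between 5.52 and 6.75 (median 6.64) in the 6 knockdown lysates. Its log2 TE was -0.51 and -0.99 with Gfp shRNA, -0.72, -0.81 and -0.92 with scramble shRNA, and -0.96 to -0.70 (median -0.83) in knockdown. The knockdown values of log2 TE lie within the range that the Gfp shRNA lysates span, whereas those of footprints overlap with both control shRNAs, and the TE change was -0.044 (95% confidence interval -0.26 to 0.17, adjusted p = 0.999, limma), an interval of 0.838 to 1.12 times control. Igf1r, without a uORF in its short annotated 5′ UTR, had 20.4, 19.3, 19.5, 18.5 and 16.7 RPKM of footprints in control lysates and 16.4 to 19.8 (median 18.4) in knockdown. Its TE change of -0.094 had the widest interval of the 10 (-0.40 to 0.21), and log2 TE in knockdown alone ranged from -0.72 to 0.10.

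The platelet-derived growth factor receptors stood on opposite sides of zero in footprints and RNA. Pdgfra had 68.6 and 65.2 RPKM of footprints with Gfp shRNA, 62.1, 59.3 and 56.9 with scramble shRNA and 49.0 to 58.8 (median 57.1) in knockdown, so the knockdown lysates lay at the lower end with an overlap at the lowest scramble lysate. The log2 change was -0.17 ± 0.066 SE in footprints (adjusted p = 0.149, limma) and -0.16 ± 0.08 SE in RNA (adjusted p = 0.333, limma). Its TE was the tightest of all 10, with control lysates between -0.42 and -0.33, knockdown lysates between -0.44 and -0.29 and a change of -0.0027 (-0.14 to 0.13). Pdgfrb had a change of 0.40 ± 0.15 SE in footprints (adjusted p = 0.132, limma) and 0.36 ± 0.14 SE in RNA (adjusted p = 0.198, limma) and of 0.045 in TE (-0.14 to 0.23). Its control lysates fell apart by shRNA, as described below.

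Fgfr1, through which fibroblast growth factors signal in most fibroblasts, had 147 and 149.8 RPKM of footprints with Gfp shRNA, 109.5, 109 and 104 with scramble shRNA and 119 to 151 (median 129) in knockdown, so the knockdown lysates lay mostly between the control shRNAs. Its TE change was -0.085 (-0.28 to 0.11). Egfr, the receptor for epidermal growth factor, epiregulin and related ligands, had the largest TE estimate of the 10, 0.21 (-0.021 to 0.45, adjusted p = 0.81, limma), with log2 TE of 0.33 and 0.42 with Gfp shRNA, 0.31, 0.20 and 0.06 with scramble shRNA and 0.19 to 0.78 (median 0.45) in knockdown. The groups overlapped, and Egfr RNA rested on only 55 to 185 reads per library.

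Met and Axl, both poorly translated relative to their RNA, kept low TE in knockdown. Met had log2 TE of -1.65, -2.06, -1.74, -2.16 and -1.74 in the control lysates and -1.97 to -1.70 (median -1.85) in knockdown, with a change of 0.037 (-0.20 to 0.27). For Axl the control values were -1.45, -1.25, -1.26, -1.35 and -1.37 and the knockdown values -1.58 to -1.27 (median -1.31), with a change of -0.043 (-0.22 to 0.14). The groups overlapped in both receptors, of which Met carries a uORF with a favourable start and Axl carries none.

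Of the collagen receptors, Ddr2 had 210.3 and 212 RPKM of footprints with Gfp shRNA, 197, 182 and 169.6 with scramble shRNA and 157 to 190.5 (median 173) in knockdown. Its footprint change was -0.17 ± 0.07 SE (adjusted p = 0.164, limma). Without scramble shRNA replicate 3, the lowest control lysate, the change was -0.22 and passed the threshold (adjusted p = 0.0954, limma), as did 6.13% of all genes. The TE change of Ddr2 was -0.11 (-0.37 to 0.15), with Denr shRNA1 replicate 1 apart from the other knockdown lysates at 0.79 against 0.17 to 0.36. Ddr1 had 7.94 to 10.3 RPKM of footprints in control lysates and 8.18 to 10.2 (median 9.39) in knockdown, and its TE change was 0.15 (-0.11 to 0.41).

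Beyond TE, 0 of 10 receptors passed in CDS footprints, where 10.0% of all genes did, and 0 of 10 in RNA abundance, where 3.55% did (limma, FDR 0.1). At an unadjusted p below 0.05 there were 3 receptors in footprints (Pdgfra, Pdgfrb and Ddr2; 23.6% of all genes) and 1 in RNA (Pdgfrb; 16.1%), and voom on the recovered reads called 0 in both. The median log2 change of the receptors was 0.03 in footprints and 0.03 in RNA, beside 0.01 and 0.03 over all genes. The 95% intervals for TE reached down at most to -0.40 (Igf1r) and up at most to 0.45 (Egfr), so changes within these bounds were not resolved.

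**Figure D3:**
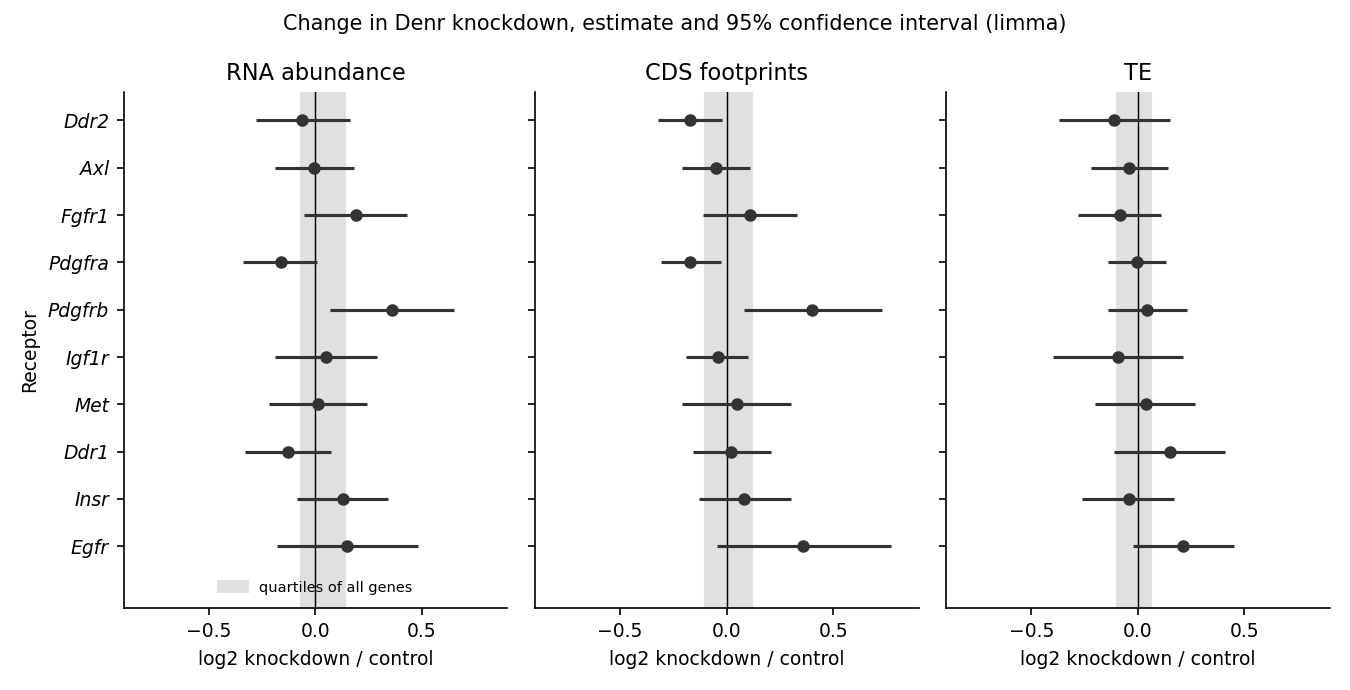
The log2 change of each receptor, knockdown against control, in RNA abundance, CDS footprints and TE, as points with 95% confidence intervals from limma; the grey band spans the quartiles of all 10516 genes. All 10 TE intervals include 0, and Pdgfrb, Pdgfra and Ddr2 have footprint intervals that do not, before adjustment over all genes.

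The share of ribosomes on the 5′ UTR was compared as relative 5′ UTR translation, the log2 ratio of footprint RPKM on the 5′ UTR to that on the CDS. With a minimum of 20 reads on the 5′ UTR in 9 of 11 RPF-seq libraries, 8 receptors entered the test, since Egfr had 1 to 14 such reads per library and Igf1r 0 to 1.

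Relative 5′ UTR translation was called in 0 of 8 receptors (limma, FDR 0.1), where 18.1% of 5175 genes were called, 937 higher and 2 lower. At an unadjusted p below 0.05 the count was also 0, against 33.3% of all genes tested. The median log2 change over all genes was 0.33, and that of the receptors 0.17, with 7 of 8 positive. Only Insr, at 0.39 (-0.013 to 0.79, adjusted p = 0.159, limma), and Pdgfra, at 0.38 (-0.014 to 0.78, adjusted p = 0.16, limma), were above the median of all genes. Fgfr1 had 0.26 (-0.038 to 0.56), Met 0.17, Ddr2 0.17, Axl 0.15 and Pdgfrb 0.059, and Ddr1 had -0.29 (-0.65 to 0.069, adjusted p = 0.218, limma). Centring each library on its median takes out the median shift over all genes, so it sets a receptor below that median near or below 0 by construction. After centring, the values of Fgfr1 (-0.062), Met (-0.15), Ddr2 (-0.16), Axl (-0.18) and Pdgfrb (-0.27) were negative.

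In single lysates, Insr had 0.81, 0.60 and 0.26 with scramble shRNA, 0.97 and -0.11 with Gfp shRNA and 0.59 to 1.10 (median 0.96) in knockdown, from 45 to 98 reads on the 5′ UTR. The control values of Fgfr1 were 0.21, 0.51, 0.38, 0.64 and 0.68 and its knockdown values 0.57 to 0.84 (median 0.79), from 1196 reads or more. Pdgfra was far lower, at -3.69, -3.19, -3.74, -3.19 and -2.99 in control and -3.21 to -2.70 (median -2.99) in knockdown. Its RNA was also sparse over the counted 5′ UTR. Computed from RNA RPKM, the same log2 measure averaged -3.04 in control and -2.97 in knockdown lysates. The footprint means were -3.36 and -2.98. What the sparse RNA contributes to the low footprint values of Pdgfra was not tested. Gfp shRNA replicate 1 was the lowest of the 11 lysates in 6 of the 8 receptors. The median of all 5175 genes was also lowest in that lysate, 0.45 below the mean of the lysates on the log2 scale, and its part in these values was not tested. Without Gfp shRNA replicate 2, which had the highest relative 5′ UTR translation of Insr among the controls, the Insr change was 0.51 and passed the threshold (adjusted p = 0.073, limma), as did 34.3% of all genes in that fit.

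**Figure D4:**
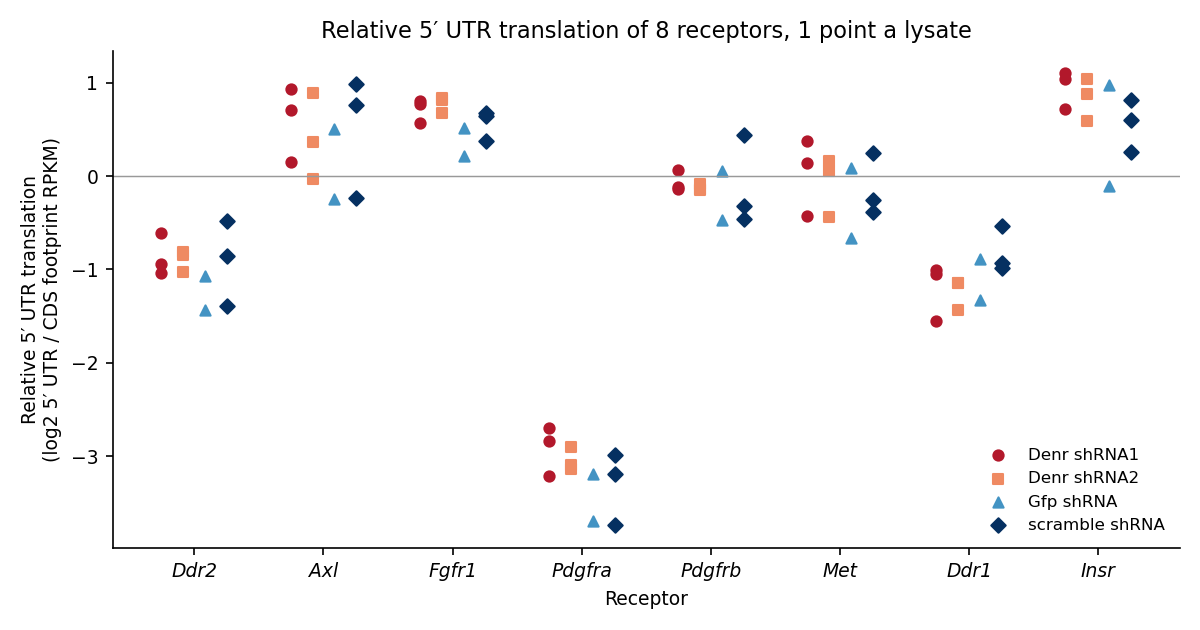
Relative 5′ UTR translation (log2 of 5′ UTR over CDS footprint RPKM) of the 8 receptors with enough 5′ UTR reads, 1 point for each lysate, coloured by shRNA. Knockdown and control lysates overlap for each receptor, Insr and Fgfr1 lie mostly above 0, and Pdgfra lies near -3.

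The clearest differences among receptors were between the control shRNAs. CDS footprints were higher with Gfp than with scramble shRNA for 3 of 10 receptors (limma, FDR 0.1), where 8.48% of all genes differed, 5.38% higher and 3.10% lower. Pdgfrb had 45.2 and 44.3 RPKM with Gfp shRNA and 26.4, 23.6 and 29.1 with scramble shRNA, a log2 difference of 0.77 ± 0.091 SE (1.70-fold, adjusted p = 0.00116, limma). Fgfr1 differed by 0.47 ± 0.074 SE (1.38-fold, adjusted p = 0.00614, limma) and Egfr by 0.64 ± 0.16 SE (1.56-fold, adjusted p = 0.05, limma), with 3.09 and 3.41 RPKM against 2.05, 2.16 and 1.93. The lysates of the control shRNAs did not overlap for any of the 3 (20.9% of all genes were higher in both Gfp lysates than in all scramble lysates). Pdgfra, Insr and Ddr2 were also higher without overlap but were not called (adjusted p = 0.209, 0.108 and 0.169, limma), and Igf1r, Met, Axl and Ddr1 overlapped. The Pdgfrb and Fgfr1 calls held without any single lysate, and that of Egfr was lost without Gfp shRNA replicate 1 (adjusted p = 0.133, limma), Gfp shRNA replicate 2 (0.257) or scramble shRNA replicate 3 (0.101).

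In RNA, Pdgfrb was the only receptor called between the control shRNAs (0.704% of all genes), with 39.6 and 38.4 RPKM against 24.1 to 26.1 in the 3 scramble lysates and a log2 difference of 0.62 ± 0.12 SE (adjusted p = 0.0707, limma). This call was lost when any 1 of the 5 lysates was left out, with differences of 0.58 to 0.64. TE differed between the control shRNAs in 0 of 10 receptors and 0 of 10516 genes (limma, FDR 0.1; 233 genes, or 2.22%, at an unadjusted p below 0.05), and the differences were 0.15 for Pdgfrb, 0.10 for Fgfr1 and 0.19 for Egfr.

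The calls of these receptors depended on the control. Against scramble shRNA alone, Pdgfrb was higher in knockdown by 0.61 in RNA (adjusted p = 0.00691, limma) and by 0.71 in footprints (adjusted p = 0.000478, limma), and Fgfr1 (0.29, adjusted p = 0.0224) and Egfr (0.62, adjusted p = 0.0481) were higher in footprints. In that fit 25.2% of all genes were called in footprints (14.0% higher) and 8.94% in RNA (6.73% higher), against 3 and 1 of the 10 receptors. The knockdown lysates of Pdgfrb, at 38.1 to 46.4 RPKM of footprints, all lay above the 3 scramble lysates and around the 2 Gfp lysates. Without Gfp shRNA replicate 1 Pdgfrb also passed against the remaining controls in RNA (0.46, adjusted p = 0.0668, limma; 6.98% of all genes were called) and in footprints (0.52, adjusted p = 0.0471; 10.7%), and without Gfp shRNA replicate 2 in footprints (0.52, adjusted p = 0.0401; 18.5%). Whether Gfp or scramble shRNA lies nearer to untransduced cells was not tested.

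The Denr shRNAs differed in 1 receptor. Egfr footprints were 3.66, 4.75 and 3.43 RPKM with Denr shRNA1 and 3.00, 2.35 and 2.54 RPKM with Denr shRNA2, without overlap (13.8% of all genes were likewise lower), a log2 difference of -0.56 ± 0.14 SE (shRNA2 against shRNA1, 0.677-fold, adjusted p = 0.0391, limma), where 9.69% of all genes differed, 4.01% lower. Its RNA differed by -0.44 ± 0.12 SE (adjusted p = 0.144, limma) and its TE by -0.12 (-0.44 to 0.21). The footprint call was lost without Denr shRNA1 replicate 2 (adjusted p = 0.149), Denr shRNA2 replicate 2 (0.149) or Denr shRNA2 replicate 3 (0.124, limma). No receptor was called in RNA (2.06% of all genes; at an unadjusted p below 0.05, 2 receptors, Fgfr1 and Egfr, and 13.6% of all genes) or in TE (0 receptors, and 0 of 10516 genes by limma with 392, or 3.73%, at an unadjusted p below 0.05). Denr stood lower with shRNA2, at 15.5 to 20.8 RPKM of RNA, than with shRNA1, at 34.4 to 44.0 RPKM.

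**Figure D5:**
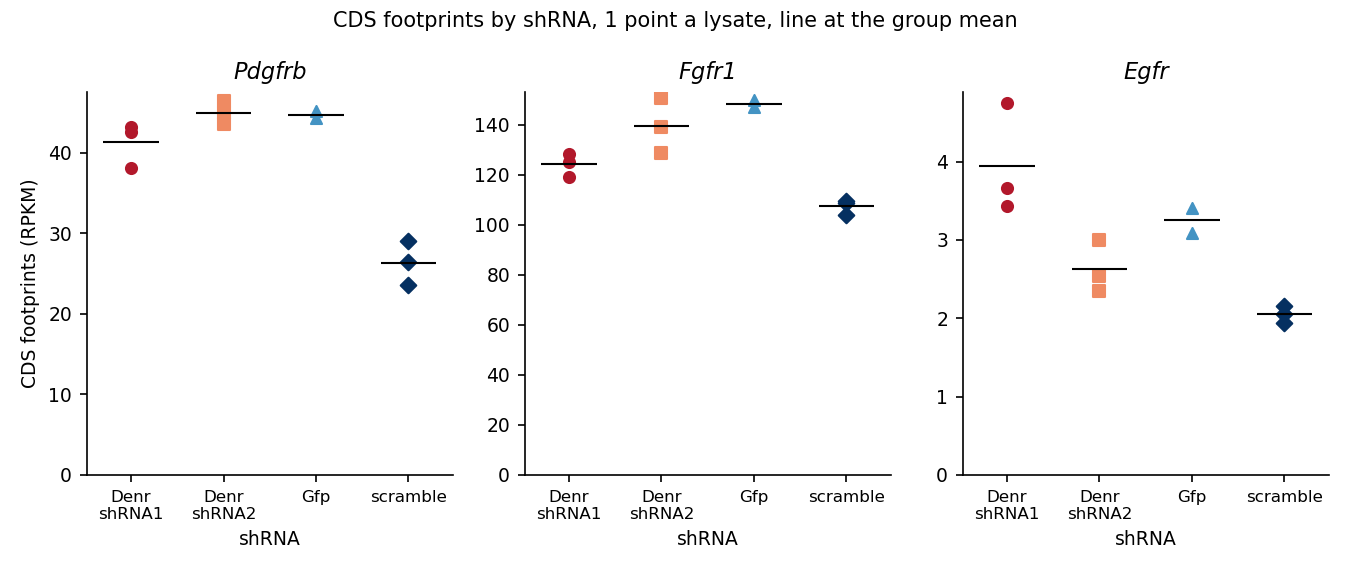
CDS footprints of Pdgfrb, Fgfr1 and Egfr in RPKM by shRNA, 1 point a lysate, with a line at the mean of each shRNA. For all 3 receptors the scramble shRNA lysates lie below the Gfp shRNA lysates, and Egfr is lower with Denr shRNA2 than with Denr shRNA1.

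The wider pathway also held no gene called in TE, a measure in which 0.475% of all genes passed. Of 42 other receptor tyrosine kinases 14 were in the files, and with 13 ligands of the 10 receptors or of their families, 33 adaptors and effectors, 24 negative regulators and 13 processing and trafficking genes, 0 passed in TE, which is near the share of all genes. Medians of the TE change of these lists lay between -0.042 and 0, beside -0.01 over all genes. Over the 5 lists 8 of 97 genes were called in footprints (8.25%, beside 10.0% of all genes) and 5 in RNA (5.15%, beside 3.55%). Among the 14 other receptors 1 was called higher and 2 lower in footprints and 0 and 1 in RNA. Ror1, a Wnt5a receptor, fell from 8.69 ± 0.570 (SD, n = 5) to 6.16 ± 1.23 RPKM of footprints (SD, n = 6; log2 change -0.51, adjusted p = 0.0326, limma) and from 7.97 to 6.01 RPKM of RNA (-0.41, adjusted p = 0.0439, limma). The footprint call of Ror1 held without any single lysate and its RNA call was lost without scramble shRNA replicate 1 (adjusted p = 0.109). Epha2 fell by 0.49 and Ephb3 rose by 0.25 in footprints (adjusted p = 0.0872 and 0.0997, limma), both ephrin receptors, and each call was lost without any 1 of 8 lysates. Their RNA changed by -0.33 and 0.14 without a call (adjusted p = 0.367 and 0.526, limma).

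Among the ligands, 2 of 13 were called lower in footprints and 1 in RNA (10.0% and 3.55% of all genes were called). Ereg, which encodes the EGF receptor ligand epiregulin, fell from 68.0 ± 14.7 (SD, n = 5) to 44.2 ± 5.58 RPKM of footprints (SD, n = 6; log2 change -0.60, adjusted p = 0.0214, limma), and Pros1, which encodes the TAM receptor ligand protein S, from 49.3 ± 4.70 to 39.6 ± 1.44 RPKM (-0.31, adjusted p = 0.0201, limma). Both calls held without any single lysate. Ereg RNA changed by -0.52 without a call (adjusted p = 0.196, limma), and Ereg TE by -0.09. Pros1 also fell in RNA (-0.29, adjusted p = 0.0486, limma), a call lost without scramble shRNA replicate 1 (adjusted p = 0.109) or 2 (0.111).

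Of the 33 adaptors and effectors, 1 was called higher in footprints and 2 in RNA, against 10.0% and 3.55% of all genes. Mapk3, the ERK1 kinase, rose from 36.9 to 51.2 RPKM of RNA (0.49, adjusted p = 0.0758, limma) and from 88.9 to 110.3 RPKM of footprints (0.32, adjusted p = 0.0409, limma). The RNA call of Mapk3 was lost without any 1 of 7 lysates and the footprint call without scramble shRNA replicate 2 (adjusted p = 0.109). The other RNA call was Pik3r2, a regulatory subunit of PI3K, at 0.33 (adjusted p = 0.0986, limma; lost without any 1 of 7 lysates), named after its value was seen. Of the 24 negative regulators, 2 were called lower in footprints and 1 in RNA, again beside 10.0% and 3.55% of all genes. Errfi1, which encodes the EGF receptor inhibitor MIG6, fell in RNA by 0.44 (adjusted p = 0.0414, limma; lost without scramble shRNA replicate 2, adjusted p = 0.133) and in footprints by 0.38 (adjusted p = 0.0963, limma). Spry2, a Sprouty inhibitor of the Ras pathway, fell in footprints by 0.28 (adjusted p = 0.0739, limma). Its RNA changed by -0.33 without a call (adjusted p = 0.149, limma). The footprint calls of Errfi1 and Spry2 were each lost without any 1 of 7 lysates. With Denr shRNA1 alone the footprint calls of Epha2, Ephb3, Ereg, Mapk3, Errfi1 and Spry2 and the RNA calls of Pros1, Mapk3, Pik3r2 and Errfi1 were lost (adjusted p = 0.112 to 0.382, limma). With Denr shRNA2 alone those of Ror1, Ephb3, Errfi1 and Spry2 in footprints and of Ror1 and Mapk3 in RNA were lost (adjusted p = 0.124 to 0.192, limma). Centring each library on its median ended the RNA calls of Mapk3 (adjusted p = 0.103) and Pik3r2 (0.137, limma), scramble shRNA alone as control that of Ror1 (0.1), a mean RPKM of at least 1 that of Pik3r2 (0.102), and eBayes without trend those of Epha2, Ephb3 and Errfi1 in footprints and of Pik3r2 in RNA (0.101 to 0.125). No processing and trafficking gene was called in footprints or RNA (limma).

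In relative 5′ UTR translation the calls of these lists were all upward: 1 of 9 other receptors, 1 of 9 ligands, 4 of 26 adaptors and effectors, 0 of 15 negative regulators and 2 of 11 processing and trafficking genes, against 18.1% of all genes higher. Akt1, a central kinase of the PI3K pathway, rose by 0.71 (adjusted p = 0.0374, limma), Gab1, a docking protein of Met and Egfr, by 0.54 (adjusted p = 0.0657, limma), Ptpn11, the phosphatase SHP2, by 0.51 (adjusted p = 0.0862, limma) and Ror2, the paralog of Ror1, by 0.54 (adjusted p = 0.0747, limma). Tsg101, of the endosomal sorting machinery, rose by 0.82, Hbegf, an EGF receptor ligand, by 0.58 and Igfbp6 by 0.56 (adjusted p = 0.0831, 0.086 and 0.073, limma). The remaining call was the adaptor Crk, at 0.45 (adjusted p = 0.0826, limma), also named after its value was seen. The CDS footprints of these 8 genes were not called and their TE changes lay between -0.08 and 0.09. The CDS footprint changes were -0.36 in Hbegf, -0.21 in Igfbp6, -0.11 in Akt1 and -0.05 to 0.01 in the others. For 5′ UTR footprints without division by the CDS, the calls of Hbegf (0.22, adjusted p = 0.51) and Igfbp6 (0.35, adjusted p = 0.139, limma) were lost. The call of Akt1 was lost without 1 lysate, Denr shRNA2 replicate 2 (adjusted p = 0.107), and the other 7 calls without any 1 of 5 to 8 lysates. With libraries centred on their median none of the 8 was called (limma), and their changes were 0.12 to 0.49. None was called with Denr shRNA1 or Denr shRNA2 alone (adjusted p = 0.171 to 0.427, limma) or over 5′ UTR RNA (0.149 to 0.532). Few genes of any kind passed in these fits: 4 with centring, 5 with Denr shRNA1 alone, 9 with Denr shRNA2 alone and 4 over 5′ UTR RNA, against 939 in the main fit. The losses in these fits therefore do not set the 8 genes apart.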

How the data were processed

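The authors deposited RPKM values for 2 regions of 10516 genes, CDS and 5′ UTR, in each of 22 libraries (11 RPF-seq, 11 RNA-seq), which were used as given. According to the paper, reads were trimmed, aligned to rRNA, tRNA, cDNA and genome, counted by region (footprints by their A-site), filtered on low counts and normalized by the upper quartile, separately for RPF-seq and RNA-seq; the submitters' processing notes name Bowtie2 2.2.1, TopHat2 2.0.11, Cufflinks 2.2.1 and GRCm38.p2. Genome builds other than GRCm38 were not used. Whole reads behind the RPKM were recovered from their steps within 0.001 read (all 231352 CDS and 228800 finite 5′ UTR values) and served for depth, the filter of 20 reads on the 5′ UTR and voom.

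Knockdown (n = 6) and control (n = 5) lysates were compared on log2(RPKM + 0.1) with limma 3.58.1 (R 4.3.3; eBayes with trend) over all genes. The p-values were adjusted by Benjamini and Hochberg's method and called at an FDR of 0.1. Fold changes are on this scale and understate those of low genes. TE was the difference of log2 CDS values of a lysate, and relative 5′ UTR translation that of log2 5′ UTR and CDS footprints. The contrasts of shRNAs came from 1 fit over all 4 shRNAs. The labels only number the replicates, and the paper describes a dish of cells for each replicate. Neither says that replicates were transduced separately, so p-values may measure the spread between cultures only. Named were the 10 receptors, Denr and, from each pathway list, at most 4 genes past the FDR with the largest changes. The members and lists were chosen with earlier results of these data known. uORFs were read from the transcript of a gene with the longest CDS (GENCODE vM21). Near-cognate starts, positions of footprints within a 5′ UTR and proteins were not analysed here.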

Additional observations from a re-analysis of the deposited data

Results flagged for a closer look

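Of the groups of lysates in which the extreme value of a receptor was compared with the rest (76 groups, of which chance flags about 1 in 20), 5 held a value set apart from the others. Ddr2 RNA in Denr shRNA1 replicate 1 was 6.69 on the log2 scale, with the next knockdown lysate at 7.09, and the log2 TE of Ddr2 in the same lysate was 0.79, with the next at 0.36. This lysate also has the RNA-seq library of the replicate pair with the lowest squared correlation (0.956), and without it the Ddr2 RNA change was 0.019. Insr footprints were lowest in Denr shRNA1 replicate 3, at 2.49 on the log2 scale against 2.68 for the next. The log2 TE of Pdgfrb was -0.14 in scramble shRNA replicate 2 against 0.13 or more in the other controls, and its relative 5′ UTR translation was 0.07 in Denr shRNA1 replicate 2 against -0.08 or less in the other knockdown lysates. The causes were not tested.

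The effect of Denr knockdown on Egfr footprints differed between the Denr shRNAs, by -0.56 on the log2 scale (shRNA2 against shRNA1, adjusted p = 0.0391, limma).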

How the results depend on the processing

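The count of receptors called in TE, knockdown against control, was 0 in every alternative run: pseudocounts of 0.01 and 1, a mean RPKM of at least 1, centred libraries, eBayes without trend, the interaction term, only Denr shRNA1 or only shRNA2, controls restricted to scramble shRNA, the replicate block and each lysate left out. In the other measures it was 0 to 1 with a lysate left out. Against scramble shRNA alone it was 1 in RNA and 3 in footprints. The genes called among all moved more. Without 1 lysate they were 139 to 734 in RNA (373 with all), 484 to 1946 in footprints (1053), 14 to 72 in TE (50) and 38 to 1773 in relative 5′ UTR translation (939), lowest without scramble replicate 2, scramble replicate 1, Gfp replicate 2 and Denr shRNA2 replicate 2. Between the Denr shRNAs they were 61 to 245 in RNA (217) and 560 to 680 in footprints (1019), with 0 to 1 receptors called in footprints. Between the control shRNAs they were 1 to 47 in RNA (74), with 0 receptors, and 154 to 1300 in footprints (892), with 2 to 5 receptors. With Denr shRNA1 alone 159 genes were called in RNA, 1 in TE and 5 in relative 5′ UTR translation, and with Denr shRNA2 alone 9 in the last. Against scramble shRNA alone there were 940 in RNA, 2651 in footprints, 10 in TE and 514 in relative 5′ UTR translation. For the last, centring gave 4 genes, a 5′ UTR RPKM of at least 1 gave 131 and division by 5′ UTR RNA gave 4. Fewer samples enter the fits without a lysate or with 1 shRNA; the other causes were not tested.

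Lysates of different shRNAs that share a replicate number deviated together in 10 of 15 pairs in RNA and 13 of 15 in footprints (correlation over 0.1), 10 in TE and 11 in relative 5′ UTR translation, against 5, 4, 4 and 5 of 30 pairs with different numbers. Of the 11 lysates 7 in RNA and 9 in each other measure correlated best with one of their own number, a hint from the data and not from the design. The labels name no shared batch and not every pair was over 0.1, so the fit without the block was kept. With the replicate block 1003 genes were called in RNA, 1940 in footprints and 2418 in relative 5′ UTR translation, where 2 receptors passed, Pdgfra (0.35, adjusted p = 0.0731) and Ddr1 (-0.34, adjusted p = 0.0819, limma). Between the Denr shRNAs the block gave 965 genes and 2 receptors in RNA (Fgfr1 and Egfr) and 1812 genes and 2 receptors in footprints (Egfr and Fgfr1), and between the control shRNAs 157 genes in RNA and 1437 genes and 5 receptors in footprints.

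The sign of some changes that were not called turned. In RNA this was Egfr with Denr shRNA2 alone (-0.072), Igf1r with shRNA1 alone (-0.057), Ddr2 with shRNA2 alone (0.058), Axl with the replicate block (0.0074), and Met with centring (-0.012), the block (-0.0062), shRNA1 alone (-0.09), scramble alone (-0.14) and voom (-0.016). In footprints it was Igf1r against scramble alone (0.0065), Met with shRNA1 alone (-0.071) and against scramble alone (-0.10) and Ddr1 with shRNA2 alone (-0.03). In TE it was Pdgfra with centring (0.011), and with shRNA1 alone Pdgfra (0.022), Pdgfrb (-0.02), Igf1r (0.032) and Insr (0.0077). In relative 5′ UTR translation it was, with centring (which takes out the median shift over all genes), Pdgfrb (-0.27), Fgfr1 (-0.062), Met (-0.15), Axl (-0.18) and Ddr2 (-0.16). It was also Met over 5′ UTR RNA (-0.0024), Axl against scramble alone (-0.0049) and Ddr2 without division (-0.0053). With a lysate left out the sign also turned in RNA for Igf1r (-0.0069 to 0.10), Met (-0.053 to 0.076), Axl (-0.053 to 0.039) and Ddr2 (-0.10 to 0.019), in footprints for Met (-0.052 to 0.12), Axl (-0.08 to 0.015) and Ddr1 (-0.029 to 0.064), in TE for Pdgfra (-0.019 to 0.0098), Pdgfrb (-0.017 to 0.087), Insr (-0.10 to 0.025) and Met (-0.036 to 0.092), in relative 5′ UTR translation for Pdgfrb (-0.021 to 0.21) and Axl (-0.0022 to 0.31), and between the Denr shRNAs for Pdgfrb RNA (-0.11 to 0.10) and Egfr TE (-0.24 to 0.002). The depth of Egfr (55 to 185 RNA reads) limits its TE.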
